A study of Mus musculus with 6 samples.

Results

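Transcripts of 33 genes for pyruvate entry and the tricarboxylic acid (TCA) cycle were measured by RNA sequencing in liver natural killer (NK) cells of wild-type mice. The genes were the rows of the deposited expression table named for the pyruvate carriers, pyruvate dehydrogenase and its regulators, the TCA cycle enzymes without complex II, and the glutamine, malate, aspartate and citrate routes. All 33 were found among the 55414 genes of the table, each in a single row. The samples formed 2 groups of 3 libraries, all taken on day 3. The first group held liver NK cells of mice treated with metformin, a diabetes drug known to inhibit complex I of the respiratory chain; the dose was 200 mg per kg over 3 days. The second held liver NK cells of control mice given phosphate-buffered saline (PBS). All 6 libraries carried the wild-type genotype, and the labels used here give no strain, age or cell sorting gate. Whether each library stands for a mouse of its own is not stated, and p-values therefore reflect the spread among these samples alone, part of which may be technical.

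Pyruvate made by glycolysis enters mitochondria through a carrier and is turned into acetyl-CoA by the pyruvate dehydrogenase complex, which kinases switch off and phosphatases switch on. The TCA cycle oxidises acetyl-CoA and passes electrons, as NADH, to respiratory complex I. In activated mouse NK cells citrate also leaves mitochondria and is split in the cytosol, a route known as the citrate-malate shuttle.

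The libraries held 22983788, 24266803 and 22152167 estimated reads for metformin 1 to 3, and 27263681, 24838302 and 30161214 for PBS 1 to 3. Expression is given as CPM, estimated reads scaled to library size with edgeR's TMM factors. All 11 NK identity markers were present, with sums of 24490 to 28409 CPM in metformin libraries and 22578 to 24800 CPM in PBS libraries. Metformin 3 stood apart on the first principal component, at 55.5, where the other 5 lay between -20.8 and -1.05. The sum of 14 hepatocyte markers was largest there too, at 706 CPM, against 284 to 311 CPM in metformin 1 and 2 and 248 to 380 CPM in PBS libraries. Albumin (Alb) itself was at 105 CPM in metformin 3 and at 22.3 to 54.9 CPM in the other libraries, and no hepatocyte marker was at 0 in all libraries. The sum of 9 macrophage markers was 112 CPM in metformin 3. It was 46.1 and 52.1 CPM in metformin 2 and 1 and 34.2 to 56.9 CPM in PBS libraries. Csf1r alone of the 9 was lowest in metformin 3, at 14.1 CPM, against 19.4 to 33.7 CPM in the other libraries. Hepatocytes also transcribe the enzymes described here, and the part of RNA from other cells in the values was not tested. Of all the marker lists, only those of type 1 innate lymphoid cells, conventional NK cells and proliferation had sums without overlap between the groups. The lists were chosen with earlier results of these data known, and the p-values of the sums are not adjusted for the number of lists. The sum of 9 markers of type 1 innate lymphoid cells (ILC1) was 1607 ± 56.2 CPM with metformin and 1069 ± 55.7 CPM with PBS (SD, n = 3 each; two-sided exact permutation p = 0.1). That of 10 conventional NK markers was 3132 ± 408 CPM with metformin and 4530 ± 13.6 CPM with PBS, and that of 10 proliferation markers 420 ± 15.0 CPM with metformin and 615 ± 129 CPM with PBS (SD, n = 3 each; exact permutation p = 0.1 for both, the smallest that 3 against 3 libraries can give). The sums of 8 T cell markers overlapped between the groups (133 to 318 CPM with metformin, 81.3 to 165 CPM with PBS). In bulk RNA, fewer cells of a type and less RNA per cell cannot be told apart, and the part of these shifts in the results below was not tested.

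For most pyruvate and TCA cycle genes the difference between metformin and PBS lay within 1.5-fold, and none passed the test. All 33 passed the filter on low counts, and edgeR's quasi-likelihood test called 0 of them at an adjusted p of 0.05, where it also called 0 of 15527 genes tested (0%). The smallest adjusted p among the 33 was 0.352 in edgeR, and DESeq2 also called 0 of the 33, against 299 of all genes (1.93%). At an unadjusted p under 0.05, 3 of the 33 were lower with metformin and 0 were higher, which is 9.09%, against 10.4% of all genes in either direction (5.29% higher, 5.08% lower). Of the 33 fold changes, 22 were below 0 on the log2 scale (66.7%), against 49.1% over all genes. The median log2 fold change of the 33 genes was -0.04, beside 0.01 over all genes tested. The 95% interval of the fold change lay within a 1.5-fold change either way for 27 of the 33 genes (81.8%), against 40.7% of all genes. The exceptions were Pdk1, Ogdh, Pcx, Acly, Aco1 and Idh2. Interval width also depends on the number of reads of a gene. The 33 were not compared with genes of like level, so these shares do not show that they were steadier. Libraries of the groups did not overlap for 10 of the 33 (30.3%; background 19.1%), 8 of them lower with metformin (background 9.63%) and 2 higher (background 9.49%). Here and below, overlap is judged on CPM unless the authors' deposited TPM values, scaled per transcript length, are named. The plot of each library relative to the PBS mean shows that many of the widest points belong to metformin 3. The plot of fold changes gives the interval of every gene.

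**Figure D1:**
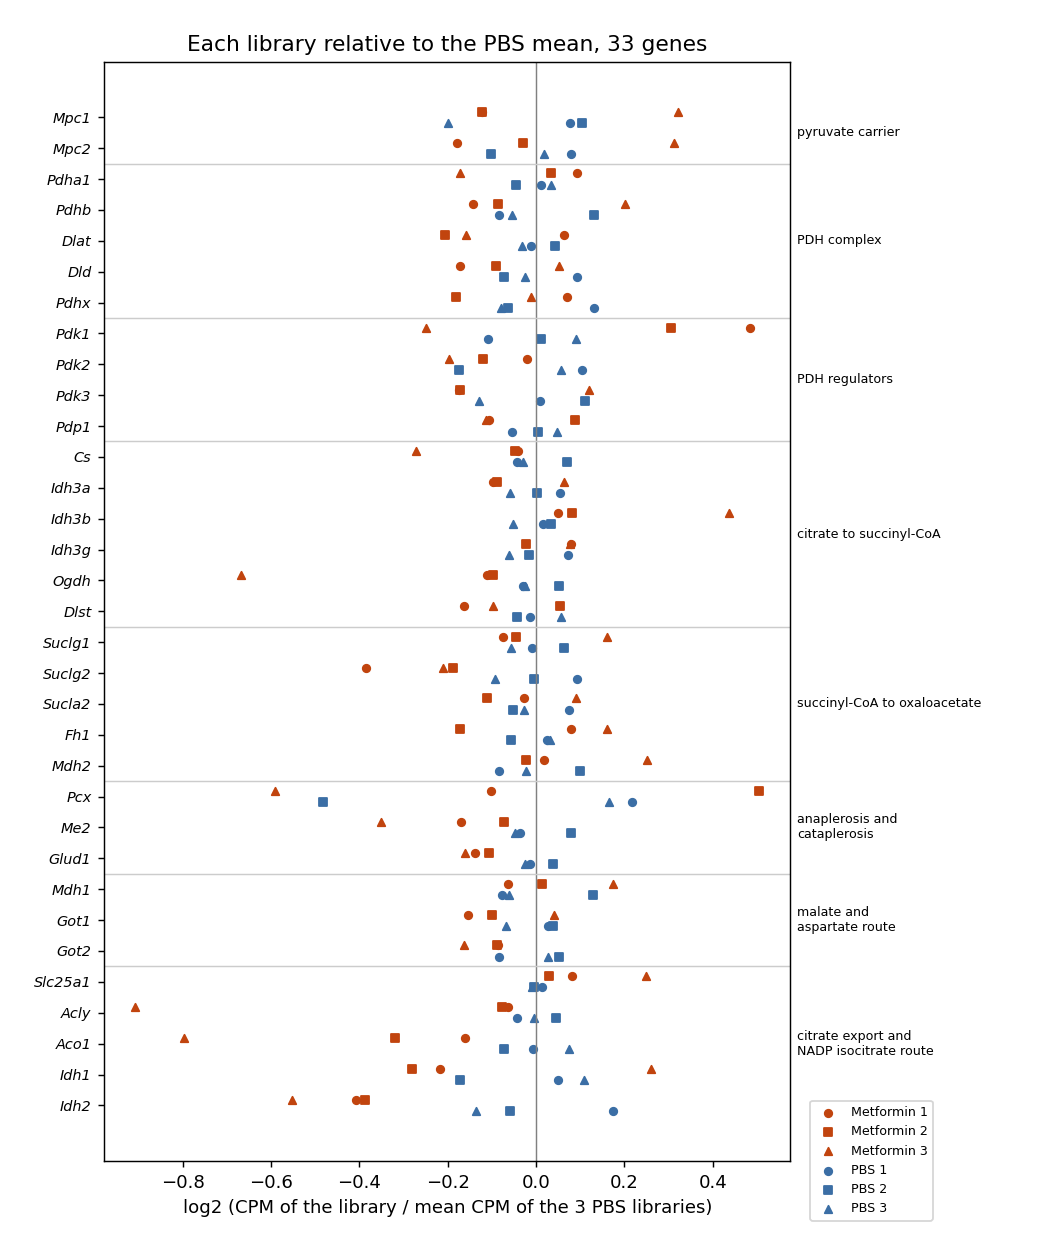
Each row is a gene, grouped by role, and the horizontal axis is the log2 ratio of a library's CPM to the mean of the 3 PBS libraries. Metformin libraries (orange) lie above PBS libraries (blue) in each row, and metformin 3 (orange triangles) is the lowest of 6 libraries for 13 genes and the highest for 14.

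**Figure D2:**
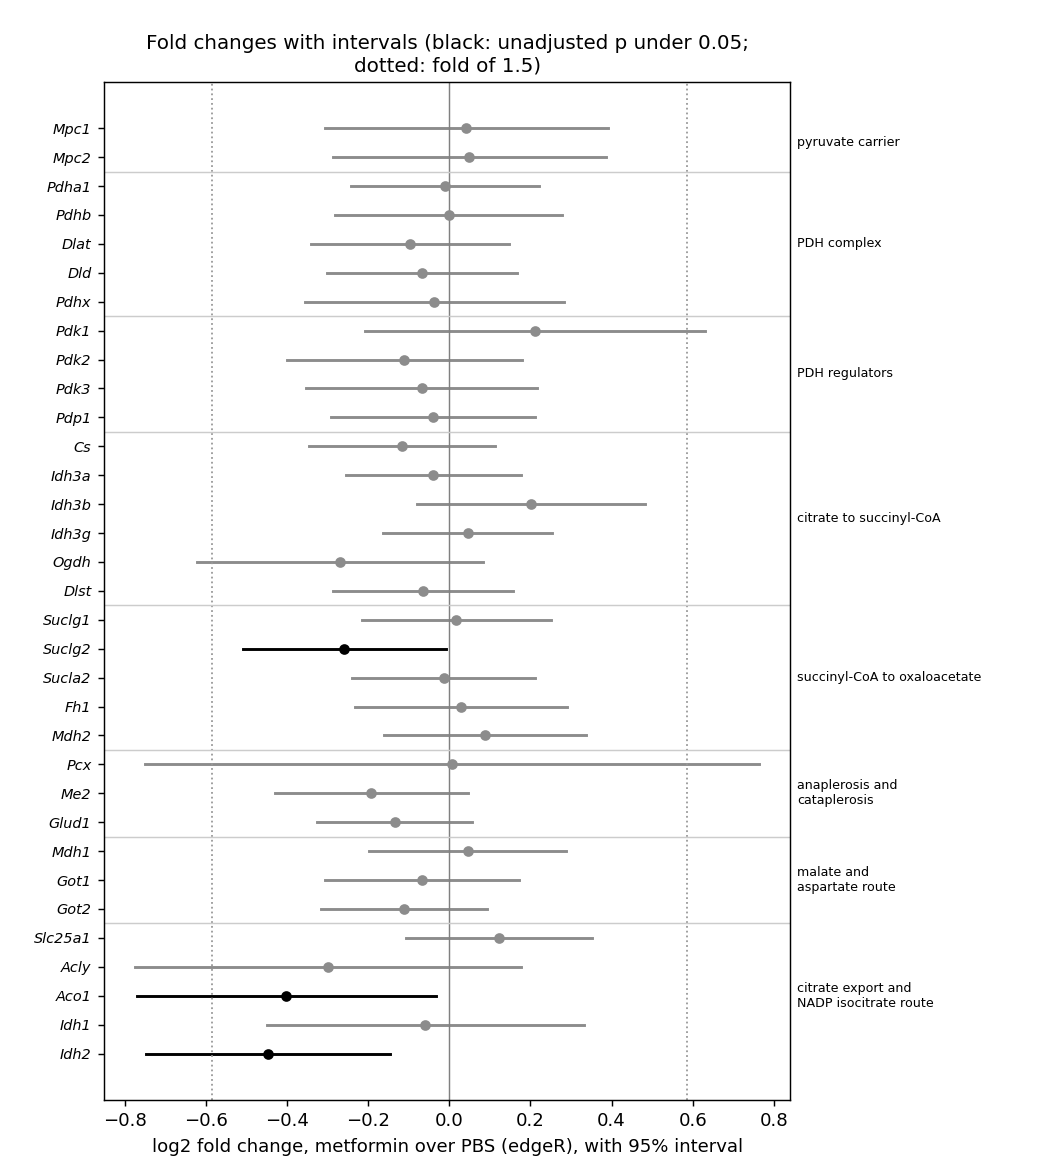
Points are edgeR log2 fold changes, metformin over PBS, bars are 95% intervals, and dotted lines mark a 1.5-fold change. Intervals in black, those of Suclg2, Aco1 and Idh2, belong to genes with an unadjusted p under 0.05, and none of the 33 passed after adjustment.

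The gene with the smallest p was Idh2, which encodes the mitochondrial isocitrate dehydrogenase that makes NADPH. Idh2 (ENSMUSG00000030541.17, chromosome 7, 79744594 to 79765140 in the deposited table) was at 22.1, 22.4 and 19.9 CPM in the metformin libraries, against 33.02, 28.1 and 26.6 CPM in the PBS libraries. Every metformin library lay below every PBS library. The log2 fold change was -0.45 (SE 0.13, 95% interval -0.75 to -0.15; edgeR unadjusted p = 0.009, adjusted p = 0.352). It stayed between -0.57 and -0.36, with an unadjusted p of 0.036 or less, in all 18 other settings tried, none of which gave an adjusted p under 0.11. The second was Aco1, the cytosolic aconitase, which doubles as an iron-regulatory RNA-binding protein when it lacks its iron-sulfur cluster. Aco1 (ENSMUSG00000028405.10, chromosome 4, 40143081 to 40198338) was at 63.0, 56.5 and 40.6 CPM with metformin, against 70.2, 67.1 and 74.2 CPM with PBS. The groups did not overlap, and metformin 3 was far below the rest. Its log2 fold change was -0.40 (SE 0.16; edgeR unadjusted p = 0.036, adjusted p = 0.463), or -0.25 without metformin 3 (unadjusted p = 0.024). The third, Suclg2, encodes the subunit of succinyl-CoA ligase that makes GTP. Suclg2 (ENSMUSG00000061838.8, chromosome 6, 95449990 to 95695781) was at 33.7, 38.6 and 37.9 CPM with metformin, against 46.8, 43.8 and 41.2 CPM with PBS, again without overlap. Its log2 fold change of -0.26 was small (SE 0.11, 95% interval -0.51 to -0.0093; edgeR unadjusted p = 0.044, adjusted p = 0.472). Estimated counts of Suclg2 were not whole, as happens where reads are shared between loci, so its values are less certain. Its unadjusted p was under 0.05 in 6 of the 18 other settings, against 14 for Aco1 and 18 for Idh2. The count of 3 genes at this unadjusted threshold was 1, Idh2 alone, when metformin 2, PBS 1 or PBS 2 was left out, and 4 without metformin 3, with Pdk1 added on the higher side.

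The stretches of 250 bases before the RefSeq transcription start of these 3 genes are shown because they were the members furthest from PBS by p; they are on GRCm38.p6, where 2 of the 33 genes, Aco1 among them, have the position of the deposited table. Annotations differ in where these genes start: 184 of the 250 bases for Aco1, 42 for Idh2 and 0 for Suclg2 lie inside the gene as GENCODE M21 draws it. They lie at chr7:80115351-80115600 (minus strand) for Idh2, chr4:40143015-40143264 (plus strand) for Aco1 and chr6:95718847-95719096 (minus strand) for Suclg2, each read 5′ to 3′ on the gene's strand. Capitals mark the GC box GGGCGG and the CCAAT box CCAAT, each on either strand.
Idh2: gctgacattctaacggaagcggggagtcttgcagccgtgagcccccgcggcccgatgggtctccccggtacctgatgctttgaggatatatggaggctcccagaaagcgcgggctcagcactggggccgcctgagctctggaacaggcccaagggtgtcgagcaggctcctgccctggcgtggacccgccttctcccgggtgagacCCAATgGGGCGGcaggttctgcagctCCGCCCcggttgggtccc
Aco1: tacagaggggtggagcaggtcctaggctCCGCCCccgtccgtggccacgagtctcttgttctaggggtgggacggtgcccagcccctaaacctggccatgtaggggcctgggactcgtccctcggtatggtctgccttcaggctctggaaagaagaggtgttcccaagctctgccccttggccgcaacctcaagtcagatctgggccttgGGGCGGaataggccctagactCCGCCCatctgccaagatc
Suclg2: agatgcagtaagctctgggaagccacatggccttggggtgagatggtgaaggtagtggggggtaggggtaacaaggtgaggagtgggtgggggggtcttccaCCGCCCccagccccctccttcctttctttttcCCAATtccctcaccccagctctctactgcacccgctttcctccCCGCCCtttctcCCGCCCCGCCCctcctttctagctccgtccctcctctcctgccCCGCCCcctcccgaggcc
The GC box was found 2, 3 and 5 times in Idh2, Aco1 and Suclg2, and the CCAAT box 1, 0 and 1 times. Of the 33 genes 30 had an entry in the promoter table (not Me2, Pdp1 and Idh3a), taken as the first listed start of each gene. Among these 30, the GC box was present in 21 (70.0%), against 32.9% of 27025 promoters, and the CCAAT box in 17 (56.7%), against 34.5%. The 27025 promoters include those of genes too low to be tested here. Shares among the genes tested were not computed, so the difference cannot be ascribed to the pathway. The E box CACGTG was present in 3 of the 30 (10%, against 6.05%), namely Pcx, Pdk2 and Slc25a1. The nuclear receptor half-site AAGGTCA was found in Got1 alone (4.05% of all promoters), the palindromic NRF-1 core in Sucla2 alone (3.86%) and AAGATGGC, the core of the YY1 motif, in Idh3g alone (1.59%). These matches describe the letters in these windows, and both motifs drawn in capitals are also present in members with fold changes near 0, such as Mpc2 and Pdhb.

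For pyruvate entry, the carriers and the dehydrogenase overlapped between the groups. Mpc1 and Mpc2 form the mitochondrial pyruvate carrier. Mpc1 was at 52.2, 52.2 and 70.9 CPM with metformin, against 59.8, 61.0 and 49.4 CPM with PBS (log2 fold change 0.04, 95% interval -0.31 to 0.39). Mpc2 was at 28.2, 31.3 and 39.7 CPM with metformin, against 33.8, 29.8 and 32.3 CPM with PBS (0.05, interval -0.29 to 0.39). In both genes metformin 3 was the highest library, and without it the log2 fold changes were -0.13 and -0.11. None of the 5 subunits of the pyruvate dehydrogenase complex had groups without overlap by CPM. Pdha1, the catalytic alpha subunit that the kinases phosphorylate, was at 140, 135 and 117 CPM with metformin, against 132, 128 and 135 CPM with PBS (log2 fold change -0.01, interval -0.24 to 0.22). Its partner Pdhb was at 123 to 157 CPM with metformin and 129 to 149 CPM with PBS. The acetyltransferase Dlat was at 49.1 to 59.2 CPM with metformin and 55.4 to 58.4 CPM with PBS. Dld, the dihydrolipoamide dehydrogenase, was at 77.7 to 90.7 CPM with metformin and 83.2 to 93.4 CPM with PBS. Its deposited TPM did not overlap, at 58.0 to 60.1 with metformin and 63.1 to 68.5 with PBS. The binding protein Pdhx was at 17.4 to 20.7 CPM with metformin and 18.6 to 21.6 CPM with PBS. Log2 fold changes of these 4 ranged from -0.10 to -0.0011, with edgeR unadjusted p of 0.392 to 0.993. For the complex, differences larger than 1.5-fold therefore lay outside the intervals of all 5 subunits.

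Among the regulators, Pdk1, a kinase that inactivates the complex, varied most. It was at 50.8, 44.9 and 30.6 CPM in metformin 1 to 3, against 33.7, 36.7 and 38.7 CPM in PBS 1 to 3. Thus metformin 1 and 2 were above all PBS libraries and metformin 3 was below them. The log2 fold change was 0.21 (SE 0.18, interval -0.21 to 0.63; edgeR unadjusted p = 0.277). Without metformin 3 it was 0.39 (edgeR unadjusted p = 0.0075, adjusted p = 0.222). With the gene length trend removed it was 0.32 (edgeR unadjusted p = 0.044, adjusted p = 0.482). Without metformin 1 it was 0.05, and on log2 of deposited TPM plus 1 it was -0.06. Pdk2 was at 23.8 to 27.0 CPM with metformin and 24.2 to 29.4 CPM with PBS (log2 fold change -0.11), and Pdk3 at 40.4 to 49.5 CPM with metformin and 41.6 to 49.2 CPM with PBS (-0.07). Pdp1, a phosphatase that reactivates the complex, was at 31.7 to 36.4 CPM with metformin and 32.99 to 35.4 CPM with PBS (-0.04). All of these overlapped between the groups.

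Between citrate and succinyl-CoA, CPM of Ogdh was lower in all metformin libraries and that of Idh3b higher, neither past the test. Cs, citrate synthase, was at 224, 223 and 191 CPM with metformin, against 224, 242 and 226 CPM with PBS (log2 fold change -0.12, interval -0.35 to 0.11). Ogdh, the decarboxylase of the 2-oxoglutarate dehydrogenase complex, was at 385, 389 and 262 CPM with metformin, against 408, 432 and 409 CPM with PBS. Its groups did not overlap, and its log2 fold change of -0.27 (SE 0.15; edgeR unadjusted p = 0.117) was -0.11 without metformin 3. Dlst, the succinyltransferase of the same complex, was at 108 to 126 CPM with metformin and 118 to 126 CPM with PBS (log2 fold change -0.07). The NAD-linked isocitrate dehydrogenase is built of 3 kinds of subunit. Idh3b, a structural subunit, was at 129, 132 and 168 CPM with metformin, against 126, 127 and 120 CPM with PBS. These groups did not overlap either, with metformin 3 far above the rest (log2 fold change 0.20, SE 0.12; edgeR unadjusted p = 0.139), and the value was 0.06 without metformin 3. The catalytic Idh3a, at 93.9 to 105 CPM with metformin and 96.4 to 104 CPM with PBS, overlapped (-0.04). So did Idh3g, at 119 to 127 CPM with metformin and 116 to 127 CPM with PBS (0.04). In deposited TPM, Idh3b overlapped, at 137 to 169 with metformin and 132 to 139 with PBS. Idh3a was instead lower in all metformin libraries on that scale, at 79.5 to 82.1, against 90.35 to 93.1 with PBS.

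From succinyl-CoA to oxaloacetate, Suclg2 was the one gene that separated the groups. Sucla2, the counterpart of Suclg2 that makes ATP, was at 78.2, 73.8 and 84.9 CPM with metformin, against 84.0, 76.9 and 78.3 CPM with PBS (log2 fold change -0.01, interval -0.24 to 0.21). Suclg1, the alpha subunit that pairs with either, was at 91.5 to 108 CPM with metformin and 92.7 to 101 CPM with PBS (log2 fold change 0.02). Fh1, fumarase, was at 48.7 to 61.4 CPM with metformin and 52.7 to 56.1 CPM with PBS (0.03). Mdh2, mitochondrial malate dehydrogenase, was at 257 to 311 CPM with metformin and 246 to 280 CPM with PBS (0.09). The groups of all 4 overlapped.

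Among genes that feed or drain the cycle, CPM of Glud1, Me2 and Got2 was lower in every metformin library, and none passed the test. Glud1, glutamate dehydrogenase, had the tightest groups, with 181, 185 and 178 CPM in the metformin libraries against 197, 204 and 195 CPM in the PBS libraries. All metformin libraries were below all PBS libraries, but the difference was small (log2 fold change -0.13, SE 0.08; edgeR unadjusted p = 0.144). Me2, mitochondrial malic enzyme, was at 213, 228 and 188 CPM with metformin, against 234, 253 and 232 CPM with PBS (log2 fold change -0.19, SE 0.10; edgeR unadjusted p = 0.099), also without overlap. In deposited TPM the groups of Glud1 overlapped, at 74.4 to 92.0 with metformin and 91.6 to 103 with PBS. Those of Me2 did not, at 120 to 159 with metformin and 160 to 180 with PBS. Got2, the mitochondrial aspartate aminotransferase, was at 134.9, 134.8 and 128.0 CPM with metformin, against 135.2, 148.4 and 146.0 CPM with PBS. Its groups were parted by a gap far smaller than the spread within either (log2 fold change -0.11). Its cytosolic partner Got1 overlapped, at 36.1 to 41.3 CPM with metformin and 38.3 to 41.2 CPM with PBS (-0.07). Cytosolic malate dehydrogenase Mdh1 did as well, at 311 to 366 CPM with metformin and 308 to 355 CPM with PBS (0.05). In deposited TPM, Got1 did not overlap, at 26.4 to 28.8 with metformin and 30.8 to 32.4 with PBS. Pcx, pyruvate carboxylase, had the lowest CPM of the 33 genes, at 6.52, 9.93 and 4.65 CPM with metformin, against 8.14, 5.01 and 7.85 CPM with PBS. Its interval, from -0.75 to 0.76 on the log2 scale, was the widest of the 33 and takes in a 1.5-fold difference either way.

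In citrate export and its use in the cytosol, besides Aco1, CPM of the carrier was higher in all metformin libraries. That of the citrate-splitting enzyme was lower in all, and neither passed the test. Slc25a1, the mitochondrial citrate carrier, was at 50.3, 48.5 and 56.5 CPM with metformin, against 48.0, 47.4 and 47.2 CPM with PBS. It was the other gene whose metformin libraries all lay above PBS (log2 fold change 0.12, SE 0.10; edgeR unadjusted p = 0.251), and without metformin 3 the value was 0.05. In deposited TPM the groups of Slc25a1 overlapped, at 51.6 to 54.7 with metformin and 49.8 to 53.7 with PBS. Acly, which splits cytosolic citrate into acetyl-CoA and oxaloacetate, was at 474, 469 and 264 CPM with metformin, against 480, 511 and 493 CPM with PBS. The groups did not overlap, yet metformin 1 and 2 were within a few percent of PBS 1. Its log2 fold change was -0.30 (SE 0.21; edgeR unadjusted p = 0.185), and -0.08 without metformin 3. Idh1, the cytosolic isocitrate dehydrogenase that makes NADPH, overlapped, at 24.2, 23.1 and 33.6 CPM with metformin, against 29.0, 24.9 and 30.3 CPM with PBS (log2 fold change -0.06).

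Levels can be compared between genes only per transcript length, for which the authors' deposited TPM values serve. The malate dehydrogenases led, Mdh1 at 314 ± 13.8 TPM with metformin and 326 ± 32.1 TPM with PBS, and Mdh2 at 305 ± 18.3 TPM with metformin and 319 ± 24.9 TPM with PBS (SD, n = 3 each). These neighbours did not differ beyond their spread. After a gap came Idh3g, Me2, Acly, Ogdh, Mpc1, Idh3b and Pdhb, whose means over the 6 libraries lay between 144 and 163 TPM and whose order within that range is not resolved. Cs followed at 100.5 ± 13.7 TPM with metformin and 118 ± 5.49 TPM with PBS. The kinases were low, with Pdk3 at 30.4 TPM in metformin libraries and 34.7 TPM in PBS libraries, Pdk2 at 18.3 TPM with metformin and 21.5 TPM with PBS, and Pdk1 at 18.26 TPM with metformin and 18.02 TPM with PBS. Pcx was last, at 2.40 ± 1.03 TPM with metformin and 2.55 ± 0.638 TPM with PBS. Summed, the 33 transcripts made up 2729, 2826 and 2641 TPM in the metformin libraries, against 2895, 3096 and 3005 TPM in the PBS libraries. The sums did not overlap, on a scale where the log2 fold change had a median of -0.15 over the 33 genes and -0.08 over all genes tested.

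**Figure D3:**
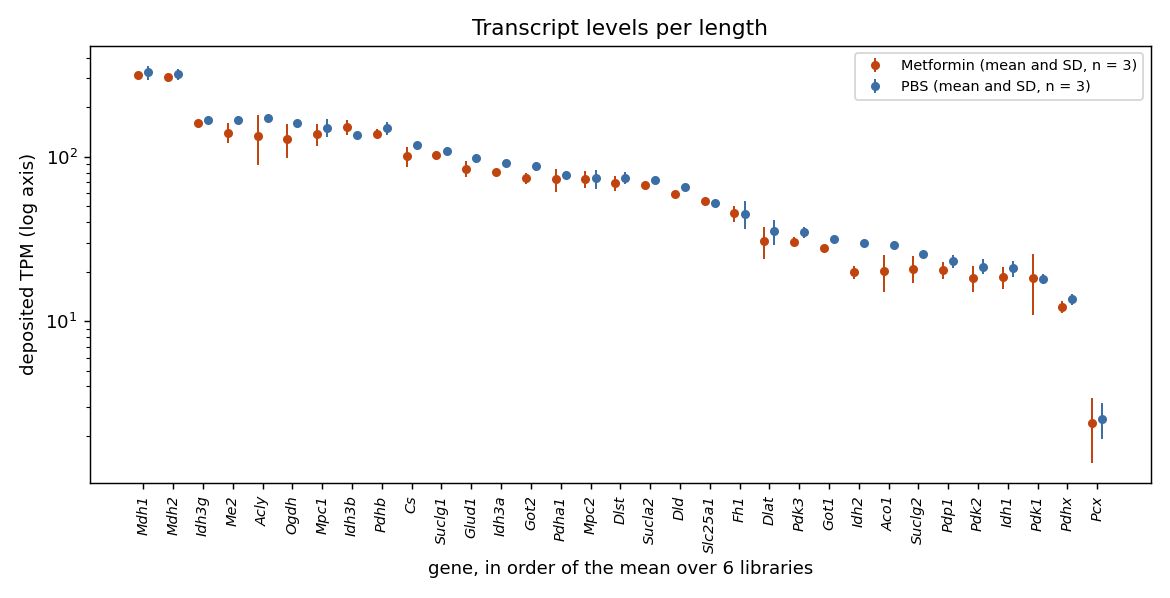
Deposited TPM of the 33 genes on a log axis, ordered by their mean over the 6 libraries, with points for the mean and bars for the SD of 3 metformin libraries (orange) and 3 PBS libraries (blue). Levels run from Mdh1 and Mdh2, above 300 TPM on average, to Pcx, near 2.5 TPM.

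Genes that share a complex, a step or a branch point were also compared as ratios of TPM within each library, 13 in all. For 12 of them the libraries overlapped between the groups. The exception was Idh3a over Idh3b, at 0.579, 0.547 and 0.486 with metformin, against 0.688, 0.672 and 0.654 with PBS (log2 difference -0.32; two-sided exact permutation p = 0.1, adjusted over the 13 ratios p = 1.0). Lower values were found in 3 of 3 metformin libraries, and the log2 difference was -0.25 without metformin 3. Sucla2 over Suclg2, the balance of ATP-making to GTP-making ligase subunits, was 3.85, 2.61 and 3.44 with metformin, against 2.82, 2.72 and 2.89 with PBS (exact permutation p = 0.4). Pdk1 over Pdha1 was 0.319, 0.241 and 0.173 with metformin, against 0.223, 0.239 and 0.234 with PBS (exact p = 0.8). Idh1 over Idh2, the cytosolic to mitochondrial NADPH-making enzyme, was 0.845, 0.784 and 1.21 with metformin, against 0.658, 0.639 and 0.819 with PBS (exact permutation p = 0.2). Acly over Cs was 1.5, 1.45 and 0.968 with metformin, against 1.48, 1.44 and 1.51 with PBS (exact permutation p = 0.6), with metformin 3 alone below 1. All 13 adjusted p were 1.0. Mdh1 over Mdh2 was the steadiest ratio, between 0.984 and 1.08 in all 6 libraries.

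Gene length was linked to the library among the 33 genes, as it was over all genes tested. In metformin 3 the deviation of a gene from its mean over all libraries ran against its length (Spearman rho -0.64 over the 33 genes), while rho was 0.25 and 0.51 in metformin 1 and 2 and 0.15, 0.07 and 0.60 in PBS 1 to 3. These correlations are over genes of shared libraries and are given as a description. The deviations of a gene cancel out over the 6 libraries, so the downward slope in metformin 3 by itself pushes the slopes of the others upward. Over all genes tested, rho was -0.43 in metformin 3 and -0.10 to 0.35 in the other libraries. The 4 genes furthest below their mean in metformin 3 were Acly (4426 bases), Aco1 (3832 bases), Pcx (4148 bases) and Ogdh (4127 bases). The 4 furthest above were Idh3b (2049 bases), Mpc1 (961 bases), Idh1 (2302 bases) and Mpc2 (4015 bases). These are gene lengths as deposited, and by them Mpc2 went against the trend. Its TPM exceeded its CPM (73.3 and 33.1 with metformin), as for the short Mpc1 (138 and 58.4). Acly had the reverse (134 and 402). Which transcript length of Mpc2 was expressed was not tested, so its place relative to the trend is unsettled. With the trend of each library on gene length removed, the log2 fold changes were -0.23 for Acly, -0.20 for Ogdh and -0.35 for Aco1. Idh2, with 1790 bases, went against the trend, and its log2 fold change was -0.52 once the trend was removed.

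**Figure D4:**
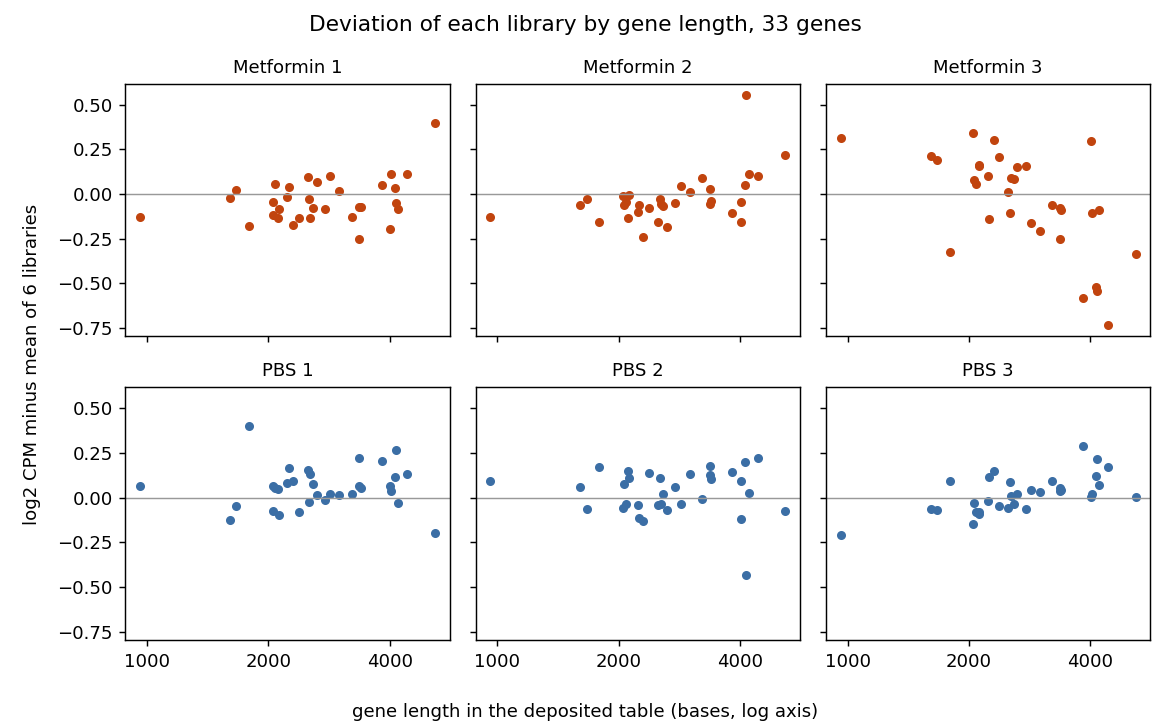
Each panel is a library, metformin in the upper row and PBS in the lower, and each point is one of the 33 genes, placed by its length in the deposited table (log axis, bases) and by its log2 CPM minus the mean of the 6 libraries. Points slope downward in metformin 3 (Spearman rho -0.64) and upward in PBS 3 (0.60). The deviations of a gene cancel out over the 6 libraries, so the panels are not independent.

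Of 34 further genes of the same reactions, present as 35 rows because Nnt has 2, 32 rows were tested and 3 genes (Ogdhl, Dhtkd1 and Me3) were too low. At an unadjusted p under 0.05, 2 were higher and 2 lower with metformin (12.5%; background 10.4%), and edgeR called 0 after adjustment. Slc16a1, the plasma membrane carrier MCT1 that moves lactate and pyruvate, was at 15.2, 15.1 and 12.9 CPM with metformin, against 29.7, 23.7 and 27.9 CPM with PBS. All metformin libraries lay far below all PBS libraries (log2 fold change -0.91, SE 0.14, 95% interval -1.24 to -0.57; edgeR adjusted p = 0.179). Acss2, which makes cytosolic acetyl-CoA from acetate, was at 134, 117 and 109 CPM with metformin, against 158, 152 and 163 CPM with PBS (log2 fold change -0.39, SE 0.11; edgeR adjusted p = 0.312). DESeq2 called these 2 genes lower (adjusted p = 6.1e-05 and 0.044), among the 299 genes it called. On the higher side, Lias, the synthase of the lipoyl group that Dlat and Dlst carry, was at 43.0, 39.3 and 47.5 CPM with metformin, against 36.6, 34.3 and 32.8 CPM with PBS (log2 fold change 0.32; edgeR adjusted p = 0.424). Sdhc, a membrane anchor of complex II, was at 70.9, 70.8 and 82.9 CPM with metformin, against 64.9, 62.2 and 59.9 CPM with PBS (0.26; edgeR adjusted p = 0.460). Groups did not overlap for 8 of the 32 rows (25%; background 19.1%), 3 higher and 5 lower. Pdk4, the kinase induced by fasting in liver and muscle, was at or below 1.27 CPM in every library.

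**Figure D5:**
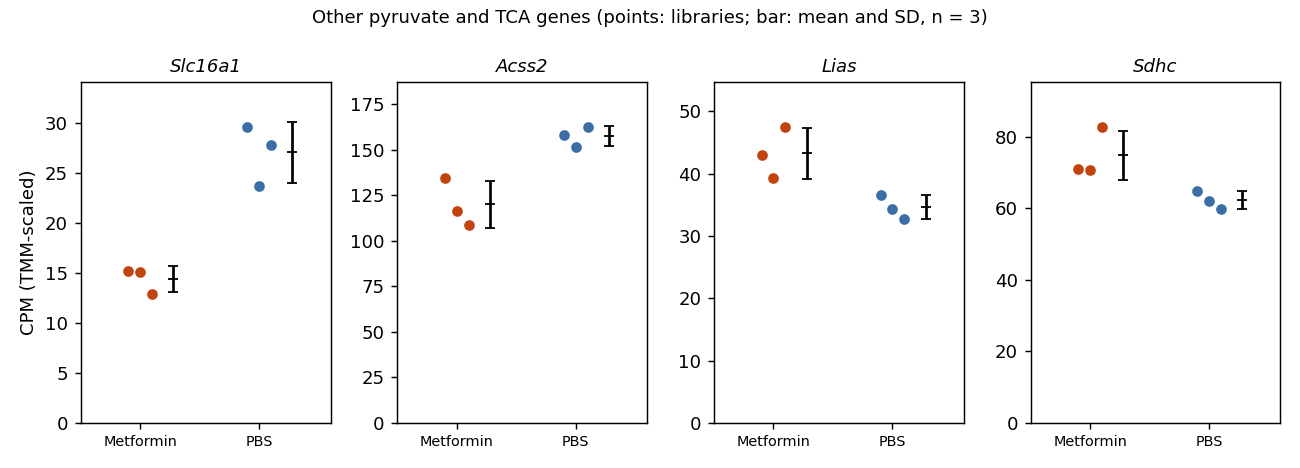
CPM of the 4 further genes with an unadjusted p under 0.05, with a point per library, metformin left and PBS right, and bars for the mean and SD of 3 libraries. Slc16a1 and Acss2 are lower in all 3 metformin libraries, and Lias and Sdhc are higher.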

How the data were processed

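The authors deposited a single table with an estimated count and a TPM value per gene and library. The deposited estimated counts are not normalized, and each library's deposited TPM column, the authors' own scaling, sums to a fixed total and keeps no depth. Per the labels' protocols, libraries were made with SMART-seq chemistry from total RNA. The submitters' processing notes name DRAGEN without a version, and list GRCm39 and mm10 without saying which was used. How reads were counted, whether by strand, and which filters applied is not stated. All 33 genes were matched to GENCODE M21 (GRCm38), where 2 had the same position, so gene positions are given as in the deposited table. Estimated counts were not whole (beyond 0.001 reads) for 8 genes (Mpc1, Pdha1, Pdhb, Cs, Dlst, Suclg2, Glud1 and Got2), as happens where reads are shared between loci, so their values are less certain.

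Counts were rounded and tested with edgeR 4.0.16 (quasi-likelihood, TMM scaling, filterByExpr) in R 4.3.3 on all 15527 genes that passed the filter, with Benjamini-Hochberg adjustment over all of them and a threshold of 0.05. The SE is the absolute log2 fold change divided by the root of the F statistic, and intervals are 95% by edgeR's degrees of freedom. DESeq2 1.42.0, limma 3.58.1, other scalings and filters, log2(TPM + 1), removal of a lowess trend (span 0.3) on gene length, the replicate number as a block and each library left out were the alternatives. For marker sums and ratios, exact permutation tests were two-sided (SciPy 1.17.1). The tests were tried on simulated counts with known changes, and how many of those were recovered is not reported here. No library was a repeat of another of its group (chi-square of counts over degrees of freedom 13.8 to 57.7). The members and lists were chosen with earlier results of these data known. Values per library are given for members with an unadjusted p under 0.05 or groups that do not overlap and for 10 members named whatever their values (Mpc1, Mpc2, Pdha1, Pdk1, Cs, Sucla2, Suclg2, Pcx, Acly and Slc25a1). Further genes of the pathway were named at an unadjusted p under 0.05, and one gene of that list is not reported here. Idh1, Pdk4, the promoter motifs and the correlation of deviations with gene length were added after the data were seen.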

Additional observations from a re-analysis of the deposited data

How the results depend on the processing

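None of the 33 genes passed the adjusted threshold in any of the 18 alternatives. Of 594 values, 60 had the sign opposite to the reported one, all in 16 genes whose reported log2 fold change was at most 0.21 in size, and Idh2, Aco1 and Suclg2 were lower with metformin throughout. The cause of these moves was not tested. The count of genes called among all tested, 0 as reported, was 299 with DESeq2, 36 with limma-voom and sample quality weights, 1 with no filter, 1 with the gene length trend removed, 3 with the replicate block and 0 to 1 with a library left out (1 without metformin 3). At an unadjusted p under 0.05 edgeR had 1610 genes. The count of the 33 at an unadjusted p under 0.05 was 1 to 4 with a library left out. Their median log2 fold change was 0.0045 with upper quartile scaling, -0.15 on log2(TPM + 1) and -0.076 (without metformin 3) to -0.024 with a library left out. Non-overlapping ratios numbered 2 with estimated counts and 1 to 3 with a library left out, and non-overlapping marker sums, 3 as reported, numbered 5 with mean log2 CPM and 3 to 6 with a library left out, where fewer libraries overlap less often by construction. Same-numbered libraries had deviations correlated at 0.18, 0.10 (0.0997) and 0.16 for numbers 1 to 3, and each library correlated best with its own number in the other group, a hint from the data only. With the replicate block the unadjusted p was 0.016 for Idh2 and 0.041 for Aco1, and no call among the 33 differed.

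The log2 fold change was -0.039 for Pcx with limma-voom. Values were -0.089 for Mpc1, -0.062 for Mpc2, 0.050 for Pdha1, -0.048 for Suclg1, -0.018 for Fh1, -0.020 for Mdh1 with limma-voom and sample quality weights. Fold changes (log2) were 0.00074 for Pdha1, 0.017 for Pdhb, 0.0019 for Sucla2 with library size only. The log2 fold change was 0.032 for Pdha1, 0.053 for Pdhb, 0.012 for Pdhx, 0.0045 for Pdp1, 0.011 for Idh3a, 0.037 for Sucla2 with upper quartile scaling. Values were -0.0080 for Pcx with no filter. Fold changes (log2) were 0.00085 for Pdha1, 0.015 for Pdhb, 0.0010 for Sucla2 with a filter of 5 CPM in 3 libraries. The log2 fold change was 0.0059 for Pdha1, 0.018 for Pdhb, 0.0046 for Sucla2 with protein-coding genes only. Values were -0.13 for Mpc1, -0.0074 for Mpc2, -0.063 for Pdk1, -0.057 for Idh3g, -0.084 for Suclg1, -0.051 for Mdh1, -0.064 for Mdh2, -0.090 for Pcx on log2(TPM + 1). Fold changes (log2) were -0.035 for Pcx with the replicate block. The log2 fold change was -0.15 for Mpc1, 0.042 for Pdp1, -0.011 for Idh3g, -0.0099 for Mdh1, -0.013 for Mdh2 with the gene length trend removed. With each library left out in turn, the log2 fold changes ranged from -0.12 to 0.068 for Pdhb, -0.26 to 0.038 for Idh1, -0.048 to 0.12 for Fh1, -0.099 to 0.029 for Pdhx, -0.075 to 0.031 for Sucla2, -0.33 to 0.23 for Pcx, -0.13 to 0.11 for Mpc1, -0.11 to 0.15 for Mpc2, -0.072 to 0.057 for Pdha1, -0.067 to 0.055 for Suclg1, -0.030 to 0.11 for Mdh1, -0.0083 to 0.14 for Mdh2.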
